A study of Rattus norvegicus with 119 samples.

Results

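The ventral mesenchymal pad (VMP) is a condensed layer of mesenchyme that lies beside the urethra of the newborn rat and is known for its capacity to induce prostatic buds in epithelium. The cells described here were all 49 single cells sequenced from the VMP whose counts were deposited, out of 115 single cells and 119 samples in the series. They were taken by tissue of origin, as the labels give it, and by no measured value. The other 66 cells came from the adjacent SU tissue, which the labels describe as urethral epithelium with the mesenchyme around it and smooth muscle. Both tissues were dissected from Wistar rats on the day of birth (postnatal day 0). The labels give the sex, female, for the tissue samples of the series and state none for the single cells. The study describes both tissues as dissected from females and counts single cells among its assays of female VMP. The tissue was dissociated with 2 mg/mL collagenase for 60 min at 37 °C. Cells were captured on a Fluidigm C1 chip, full-length cDNA was made with ERCC spike-in RNA added, and paired reads of 100 bases were sequenced. The labels state 52 VMP cells captured and sequenced and 63 SU libraries sequenced, while the deposited tables held 49 and 66 cells. Each tissue was 1 cell suspension from pooled animals, so each tissue was 1 sample and its cells were not replicates. No test between tissues or among cells was therefore possible, and differences are given as sizes.

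Mesenchyme of the developing urogenital tract signals to the epithelium through secreted factors. Fgf10 drives epithelial branching through its receptor Fgfr2, R-spondins amplify Wnt signalling, and secreted frizzled-related proteins restrain it. Fibroblast-like cells also deposit the collagens and small proteoglycans of the matrix, and homeodomain and EBF transcription factors mark regional identity within mesenchyme.

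A VMP cell held between 248738 and 1200734 counts on genes, with a median of 614376, and had a read for between 4075 and 6962 genes, with a median of 5545. Levels are given as CPM, a count scaled to a fixed total on genes in that cell, and 10 CPM, about 6 reads in a cell of median depth, was taken as a working minimum for a clear signal. Of all values above 0 in these cells, 40.1% were 1 to 3 reads and 47.01% were under 10 CPM. Gene symbols came from the study's own tables of transcripts that differed between the tissues, which named 2995 of 32662 gene identifiers (9.17%). A named gene is therefore one that the study listed as differing in at least 1 assay, and this holds for every gene named below. Genes common to all cells that did not differ between the tissues mostly carried no name.

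The VMP cells fell into a lower-numbered and a higher-numbered set by which genes had any read. Of 8017 genes read in 15 to 85% of the VMP cells, 168 were read in a share at least 50 percentage points larger in the 24 cells numbered 5 to 44, and 171 in the 25 cells numbered 50 to 94. The leading component of the read or no read pattern held 6.41% of its variance and lay above 0 in all 24 lower-numbered cells and below 0 in all 25 higher-numbered cells. The cut between cells 44 and 50 was placed after this pattern was seen. Neither the gene counts nor this separation is therefore an independent check of it. Rgs5, a regulator of G protein signalling known from pericytes, had a read in 1 of 24 lower-numbered and 20 of 25 higher-numbered cells, at a median of 2.48 CPM in the latter. At 10 CPM or more the same split had 16 and 15 such genes of 5259. SU cells split at the same place had 53 and 103 such genes of 8840. The cell numbers come from the sample titles. Which step of capture or sequencing the numbers follow is not given in the sources used here, and its part in the results was not tested. Median depth was 621632 counts in the lower-numbered and 597648 in the higher-numbered cells. Both sets are given below for the markers and for some genes whose values differed widely between them.

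The VMP cells carried the genes of inductive mesenchyme together with general fibroblast genes, and low levels of the epithelial genes matched. All 7 markers (Dcn, Ptn, Igf2, Meis2, Fgf10, Ebf3 and Rspo2) reached 10 CPM in 23 of 49 VMP cells and in 1 of 66 SU cells. Another 17 VMP cells had 6 of the markers, 6 had 5 and 3 had 4, and no VMP cell had fewer, while 42 of 66 SU cells had 4 or fewer. Of the 23 cells with all 7, 8 were among the 24 lower-numbered and 15 among the 25 higher-numbered cells. Medians in the lower-numbered and higher-numbered cells were 3039 and 3108 CPM for Dcn, 892 and 1093 CPM for Ptn, and 826 and 873 CPM for Igf2. They were 467 and 570 CPM for Meis2 and 43.3 and 37.4 CPM for Ebf3, and those of Fgf10 and Rspo2 follow below. The markers were chosen as VMP genes from these tissues, so their direction between the tissues is not independent evidence.

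Dcn, the collagen-binding proteoglycan decorin (chr7:38742051-38782323 in Rnor_6.0), was at least 193 CPM in every VMP cell, with a median of 3078 and a highest value of 10180 CPM. It did not set the tissues apart, with a median of 3245 CPM in SU cells and a log2 ratio of summed counts of -0.08 (VMP over SU).

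Ptn, the heparin-binding growth factor pleiotrophin (chr4:64239158-64330996), ranged from 47.1 to 8181 CPM with a median of 951. It reached 10 CPM in 49 of 49 VMP cells and 55 of 66 SU cells, where its median was 137 CPM. Cell 37 alone gave the highest value, and the next cell was at 2655 CPM.

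Igf2, the fetal insulin-like growth factor (chr1:215828102-215846911), had no read in 1 VMP cell, a median of 831 CPM and a highest value of 4299 CPM, also in cell 37. It reached 10 CPM in 47 of 49 VMP cells and 45 of 66 SU cells. Igf1, the related growth factor, had a read in every VMP cell, from 2.36 to 2175 CPM with a median of 571 CPM.

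Fgf10 (chr2:51672722-51750369) had a read in all 49 VMP cells and in 65 of 66 SU cells, but the levels differed. It ranged from 2.32 to 4337 CPM in VMP cells with a median of 111 CPM, and its median in SU cells was 7.62 CPM. At 10 CPM or more it was in 41 VMP cells (83.7%, 95% exact binomial interval 70.3 to 92.7%) and in 22 SU cells (33.3%, 22.2 to 46.0%). The intervals cover counting error within these 2 cell suspensions only. A read of Fgf10 in a cell was thus no mark of VMP origin, whereas a level of at least 100 CPM occurred in 25 VMP cells and 2 SU cells. The lower-numbered and higher-numbered VMP cells had medians of 101 and 111 CPM.

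Meis2, a TALE homeodomain factor (chr3:107559997-107760589), had a read in all 49 VMP cells, from 3.58 to 4036 CPM with a median of 560 CPM, against an SU median of 40.3 CPM. Meis1, its close relative, ran alongside, from 4.78 to 4308 CPM with a median of 581 CPM, against 14.2 CPM in SU cells. Ebf3, a helix-loop-helix factor (chr1:209523157-209641123), had a read in all 49 VMP and all 66 SU cells, with medians of 38.5 and 9.01 CPM. Rspo2, the R-spondin that amplifies Wnt signalling (chr7:81924050-82059789), was the least evenly seen of the markers. Its median was 17.3 CPM, and it reached 10 CPM in 31 VMP cells and 8 SU cells. Among VMP cells these were 11 of the 24 lower-numbered and 20 of the 25 higher-numbered cells, with medians of 6.83 and 23.6 CPM.

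**Figure D1:**
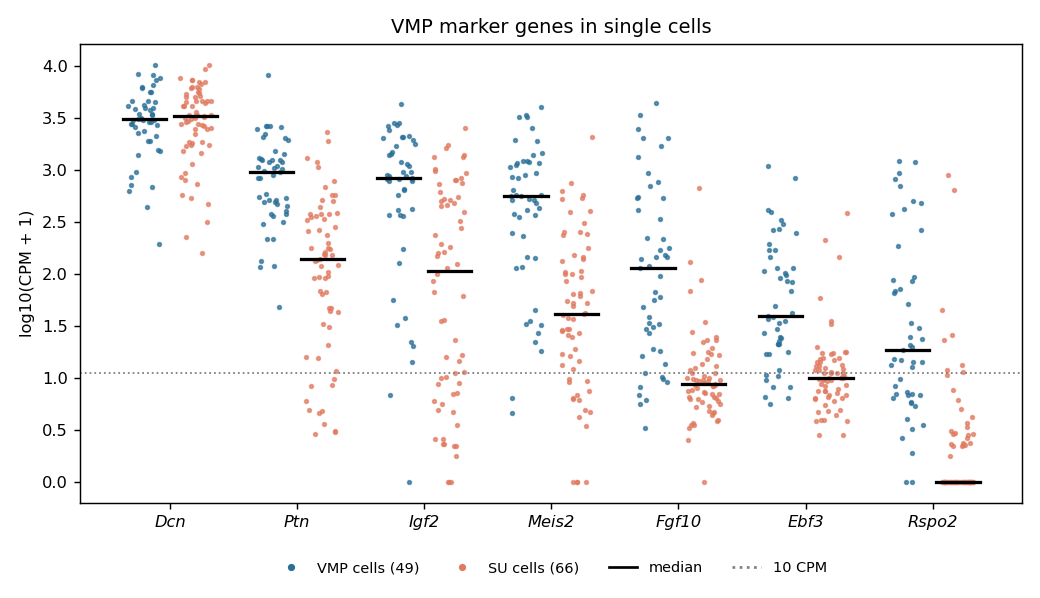
Each point is 1 cell, placed by its level of a marker gene as log10(CPM + 1), for 49 VMP and 66 SU cells, with the median as a bar and 10 CPM as a dotted line. Dcn overlaps fully between the tissues, the other 6 medians lie higher in VMP cells, and Fgf10 and Ebf3 in SU cells gather just around 10 CPM rather than at 0.

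Of the 11 further genes that the study put forward for the VMP, Slc26a7, an anion exchanger (chr5:27986663-28177340), was the most widely seen. It had a read in every VMP cell, from 6.45 to 3025 CPM with a median of 131 CPM, and reached 10 CPM in 47 VMP and 10 SU cells. Its median was 77.8 CPM in the lower-numbered and 545 CPM in the higher-numbered cells, a wider gap than the tissue markers showed. Dlk1, a membrane protein of the Notch ligand family encoded at an imprinted locus, was at 10 CPM in 28 VMP and 15 SU cells. Nell2, a secreted glycoprotein, was at 10 CPM in 26 VMP and 8 SU cells. Others were carried by few cells: Rspo3 reached 10 CPM in 8 VMP cells, Scube1 in 7, Nmur2, the neuromedin U receptor, in 6 and Scara5, a scavenger receptor, in 4. Nmur2 and Scara5 had no read in any of the 66 SU cells, which allows up to 4.55% of SU cells with a read. Both genes were also under 10 CPM in most VMP cells that had a read, so detection could have missed them. Scube1 had a read in 19 lower-numbered and 4 higher-numbered VMP cells. Gfra3, the artemin co-receptor, reached 10 CPM in 11 VMP cells, 3 lower-numbered and 8 higher-numbered, and Ret, the signalling receptor of that family, in 14, against 0 and 1 SU cells.

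General fibroblast genes were strong but incomplete. Col1a1, the fibrillar collagen chain, ranged from 1079 to 8106 CPM with a median of 2884 CPM, Col3a1 from 218 to 8913 CPM with a median of 2582 CPM, and Sparc, a collagen-binding glycoprotein, from 14.97 to 5402 CPM with a median of 1256 CPM. Pdgfra, a growth factor receptor of mesenchyme, reached 10 CPM in 41 VMP cells. Pdgfrb, its relative, did so in 6 VMP cells against 49 SU cells, and Twist1, a mesenchymal transcription factor, in 6 against 32. Thy1 had no read in any VMP cell, which allows up to 6.12% of cells with a read and sets no limit on cells that express the gene.

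Of 16 epithelial genes that could be matched, 11 had no read in any VMP cell, and 13 reached 10 CPM in none. The summed level over the list had a median of 2.89 CPM, and its highest value, 269 CPM, came from Rab25, a small GTPase of epithelia, in cell 24. Krt8 and Epcam stayed at or under 5.28 and 3.47 CPM. Of the 7 epithelial genes with enough counts to compare with SU, 4 were at least 2-fold higher in SU, and Rab25, Grhl2 and Ovol1 were so in VMP. These 3 reached 10 CPM in 1, 1 and 2 VMP cells. Of the leukocyte list 3 genes were matched and of the erythroid, neural and Schwann lists 2 each, too few to describe those types. Skeletal muscle genes summed to a median of 45.2 CPM in VMP and 46.7 CPM in SU cells, but the genes differed. Of 15 compared, 9 were at least 2-fold higher in SU, among them Myf5 and Myod1, against 37.5% of all named genes. Des, Tnnc2 and Tnni2 were so in VMP. Des also stood on the smooth muscle list, of which 3 genes were matched.

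Single cells stood out for vascular or mast cell genes and also held stromal genes. Cell 13 held the endothelial genes Cdh5 (1049 CPM), Emcn (1216 CPM), Tie1 (384 CPM) and Flt1 (451 CPM), together with Dcn at 2970 CPM, Ptn at 451 CPM and Fgf10 at 334 CPM. Cell 77 held the pericyte genes Rgs5 (1522 CPM) and Abcc9 (2090 CPM) with the Notch ligand Jag1 at 6472 CPM. Kcnj8, the other pericyte gene matched, had no read in cell 77 and was highest in cell 25, at 567 CPM. Cell 77 kept Ptn at 1193 CPM and Col3a1 at 6689 CPM, but Igf2 and Meis2 stood at 21.1 CPM each and Fgf10 at 31.7 CPM. Cell 6 held the mast cell proteases Cpa3 (2691 CPM) and Tpsab1 (6170 CPM), which were picked out after their values were seen. The next highest VMP cells had 10.9 and 3.35 CPM of them. Cell 6 also held Col1a1 at 3861 CPM and Dcn at 952 CPM, with Fgf10 at 8.73 CPM. Doublets were not removed. These 3 cells ranked 34, 23 and 41 of 49 by counts and 18, 14 and 47 by genes read (cells 6, 13 and 77 in turn), so none was among the deepest. Whether each was 1 cell or 2 cells was not tested.

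Outside cell 13 the endothelial genes were seen singly or in part. Cell 29 had Flt1 at 451 CPM, Emcn at 195 CPM and Icam1 at 3496 CPM with Cdh5 at 7.46 CPM, and cell 21 had Cdh5 at 652 CPM with no read of Emcn, Tie1 or Flt1. Kdr, the main receptor for vascular endothelial growth factor, behaved otherwise. It had a read in all 49 VMP cells, a median of 42.98 CPM and a highest value of 2328 CPM in cell 78. It reached 10 CPM in 37 VMP and 15 SU cells, most of them without the other endothelial genes, which reached 10 CPM in 1 to 8 VMP cells.

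**Figure D2:**
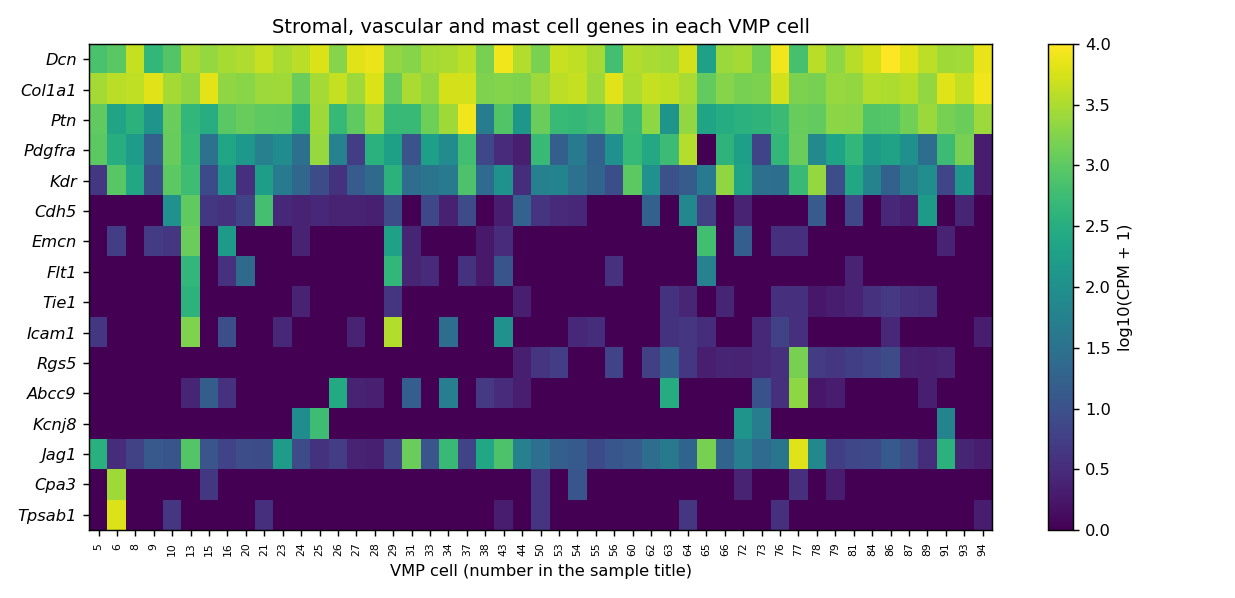
Rows are genes and columns are the 49 VMP cells in order of their number, coloured by log10(CPM + 1). Dcn, Col1a1 and Ptn run across all columns, Kdr across most, while Cpa3 with Tpsab1, most of the endothelial set and Rgs5 with Abcc9 stand out in cells 6, 13 and 77, with single endothelial genes also strong in cells such as 21 and 29. Faint Rgs5 values fill 20 of the 25 cells numbered 50 to 94 and 1 of the 24 before them.

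Of 16547 genes with a read in any VMP cell, 620 (3.75%) had a read in every one, 4654 had a read in at least 50% of the cells, and 2269 had a read in exactly 1 cell. The 620 genes took 29.5 to 53.9% of a cell's counts, with a median of 39.1%. Of the 620, 387 (62.4%) were also read in every SU cell, and 602 were read in at least 90% of SU cells. SU cells had 561 such genes. A read in every cell often meant few reads: 312 of the 620 had only 1 or 2 reads in some cell, and 429 fell under 10 CPM in at least 1 cell. At 10 CPM or more in every VMP cell there were 191 genes, 119 of which also held this in every SU cell.

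Named genes made up 76 of the 620 and 21 of the 191. Among the latter were Npm1, the nucleolar chaperone nucleophosmin (248 to 5449 CPM, median 2387), Hnrnpa1, a splicing factor (48.2 to 3772 CPM, median 1243) and Vkorc1, the vitamin K epoxide reductase (450 to 4375 CPM, median 1342). Ribosomal protein genes in this set were Rpl15 (22.4 to 2342 CPM) and Rpl39 (18.6 to 954 CPM). Slc25a4, the mitochondrial ADP/ATP carrier, was at least 12.4 CPM in every cell. Matrix genes in the set included Dcn, Col1a1, Col3a1, Sparc and Col12a1. Others were Matn2, an adaptor of matrix filaments (56.7 to 7597 CPM, median 2127), and Hmcn1, a large extracellular protein (24.6 to 5602 CPM, median 553). Akap12, a kinase scaffold (11.6 to 6811 CPM, median 1659), was also in the set. The lowest values of Hmcn1, Matn2 and Akap12 each came from a single cell, and their medians lay over 20 times higher.

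The named genes of every VMP cell did not share a direction between the tissues. Summed over cells, 16 of the 76 were at least 2-fold higher in VMP, 10 at least 2-fold higher in SU, and the median log2 ratio was 0.18. Among all named genes compared, 23.9% were at least 2-fold higher in VMP and 37.5% in SU, with a median log2 ratio of -0.26. The share past 2-fold among all 14463 genes compared was 23% higher in VMP and 28.4% higher in SU. Those higher in VMP included Hmcn1, with an SU median of 67.3 CPM, and Matn2, with an SU median of 572 CPM. Robo2, a receptor for Slit guidance proteins, had medians of 437 CPM in VMP and 45.2 CPM in SU, Foxp2, a forkhead factor, of 333 and 50.5 CPM, and Pkp4, a junction plaque protein, of 161 and 8.05 CPM. These were named for their size after the values were seen.

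Some genes were in every cell at an even low level. Dsg3, a desmosomal cadherin known from stratified epithelium, had between 2.89 and 20.1 CPM in all 49 VMP cells and a read in 64 of 66 SU cells, while Krt8 and Epcam were near 0, as given above. Perp, a junction protein, had 2.44 to 103 CPM in all 49. Both the spread and the level of these genes differ from those of genes such as Fgf10, which ranged from 2.32 to 4337 CPM. The source of even low reads was not tested.

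**Figure D3:**
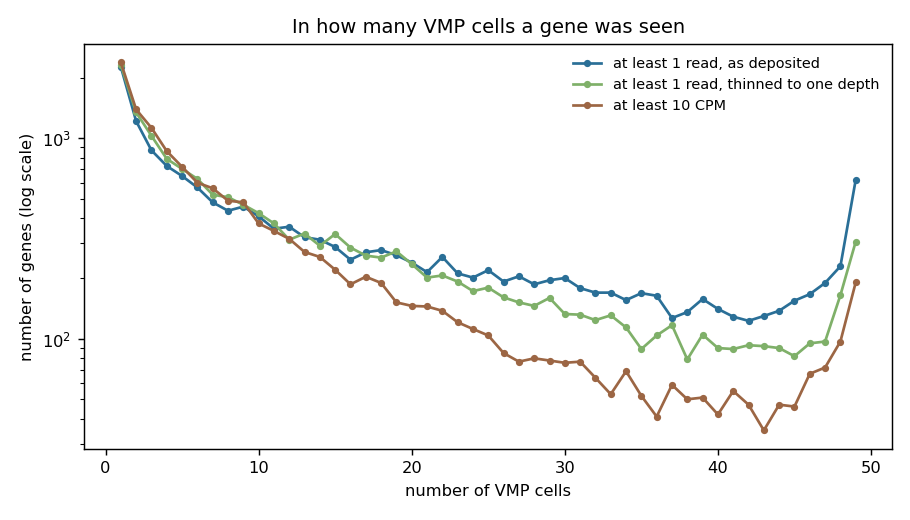
The x axis is the number of VMP cells a gene was seen in and the y axis the number of genes on a log scale, for any read, for any read after all cells were thinned to 199849 counts, and for 10 CPM or more. All curves fall from 1 cell and turn up at 49, where they end at 620, 305 and 191 genes.

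Variation among the cells was measured against the ERCC spike-ins, which entered every cell in the same amount. For each gene the squared coefficient of variation of its counts, scaled by each cell's total, was divided by the technical value expected at its mean from 41 spike-ins. That expected value was 2.82 at a mean of 100 counts and 0.282 at a mean of 1000. A gene was called variable at a ratio of at least 2, if its mean was at least 20 counts (32.6 CPM at median depth). Of 5250 genes tested, 1299 (24.7%) were called, and 555 (10.6%) were called also when each gene's highest cell was left out. The median ratio was 1.26, and 1932 genes (36.8%) varied less than the spike-in line. Among named genes 257 of 822 (31.3%) were called, with a median ratio of 1.46. The share called rose with the mean, from 16.6% at means of 20 to 50 counts to 74.4% at means of 1000 or more. With 49 cells the measure cannot exceed 49, and at a mean of 20 it had to reach 28.2, which takes high counts in few cells. Of 441 genes called below a mean of 50, 46 were still called without their highest cell.

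Some markers of the VMP were called variable, at a share near that of other genes with as many counts. At a ratio of at least 2 were Fgf10 (3.71), Dcn (3.10), Ptn (3.01) and Meis2 (2.34), 4 of the 7. Among all genes tested the share called was 39.9% at means of 200 to 500 counts, where Fgf10 lay, 45.6% at 500 to 1000, where Ptn and Meis2 lay, and 74.4% above, where Dcn lay. Ptn fell to 1.56 without cell 37, while Fgf10 stayed at 3.56, Dcn at 3.37 and Meis2 at 2.50. Igf2 was at 1.797, Rspo2 at 1.29 and Ebf3 at 0.709. Of 16 study genes with enough counts 6 were called, against 31.3% of all named genes, including Slc26a7 (2.53) and Scara5 (4.598), the latter at 0.587 without cell 78. A variance of log values, an alternative that weighs low values more, gave a ratio of 1.12 for Fgf10 and 3.19 for Igf2 and put Ptn under 2. The calls of Fgf10, Ptn and Igf2 thus depended on the scale. So did most calls, since 128 of 5250 genes (2.44%) were called on the log scale.

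**Figure D4:**
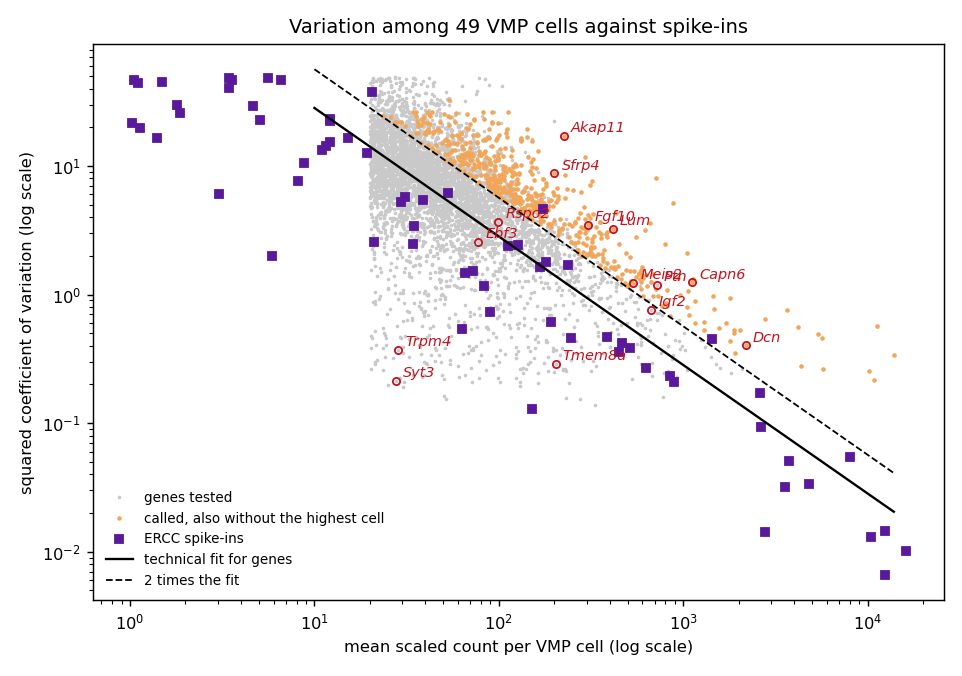
Each point is a gene at its mean scaled count (x) and squared coefficient of variation among 49 VMP cells (y), both on log scales, with ERCC spike-ins as squares, the technical line drawn solid and 2 times that line dashed. Dcn, Fgf10, Lum and Capn6 lie above the dashed line, Igf2, Rspo2 and Ebf3 do not, and Syt3, Trpm4 and Tmem8a lie far below the solid line.

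The named genes with the highest ratios that were also called without their highest cell fell into a few kinds. Of these genes, Capn6 and LOC102552527 stayed past the threshold in all 16 alternative settings run. Each of the others fell below it in at least 1 setting. In the first, the median was low and 1 or a few cells were high. Akap11, a kinase anchoring protein, had a ratio of 13.7, a median of 6.29 CPM and 10501 CPM in cell 76, and fell to 2.03 without that cell. Jag1, a Notch ligand, had a ratio of 7.54, a median of 12.1 CPM and 6472 CPM in cell 77, and fell to 2.04, whereas its SU median was 1070 CPM. Kitlg, the ligand of the Kit receptor (ratio 7.34), Rrm1, a subunit of ribonucleotide reductase (5.41), and the zinc finger genes Zfp606 (9.72) and Zfp192 (7.64) were of this kind, and Zfp192 kept a ratio of 6.53 without its highest cell. So were LOC102552527 (10.3), Ptchd1 (6.17), Armcx2 (4.89), Vps11, a vesicle tethering protein (4.61), and Icam1, an adhesion molecule (6.01). Icam1 reached 10 CPM in 4 of the 24 lower-numbered and 0 of the 25 higher-numbered cells, and Kitlg in 6 and 2. Sfrp4, a secreted Wnt inhibitor, had a ratio of 6.18 and kept 4.55. It reached 10 CPM in 11 VMP and 2 SU cells, up to 5501 CPM in cell 76, and had a read in 10 lower-numbered and 20 higher-numbered VMP cells.

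In the second kind, many cells were high and others low. Capn6, a calpain family member, had a ratio of 4.90 and of 5.02 without its highest cell. It had a read in all 49 VMP cells, from 6.63 to 8943 CPM with a median of 1137 CPM, and reached 10 CPM in 45 VMP and 24 SU cells, where its median was 5.35 CPM. Capn6 was thus wide in range among VMP cells and far apart between the tissues. The lower-numbered and higher-numbered VMP cells had medians of 731 and 1735 CPM. Lum, the matrix proteoglycan lumican, had a ratio of 4.76 and of 4.30 without its highest cell. It ranged from 0 to 6018 CPM with a median of 31.4 CPM and reached 10 CPM in 32 of 49 VMP cells, against 66 of 66 SU cells with a median of 4262 CPM. The lower-numbered and higher-numbered cells had medians of 25.2 and 31.4 CPM. Strn3, a phosphatase scaffold, had a ratio of 7.81 and of 3.03 without cell 21, where it stood at 8783 CPM. It had a read in all 49 VMP cells with a median of 106 CPM and reached 10 CPM in 24 of 24 lower-numbered and 17 of 25 higher-numbered cells, with medians of 144 and 44.8 CPM. The values just beside the threshold were 1.986 for Srp72 and 1.989 for Pcsk5 below it, and 2.001 for Rnps1 and 2.006 for Taldo1 above it.

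Among named genes with a read in every cell, the 10 steadiest varied far less than the technical line fitted to the spike-ins. Named genes read in fewer cells were left out of this list, some with ratios as low, such as Igfbp7 (0.212, read in 28 cells). Single spike-ins also lay below that line. At a mean of 82.9 counts 1 of them had a squared coefficient of variation of 1.16, against 1.44 for Acot2 at a mean of 81.2. Syt3, a synaptotagmin, had a ratio of 0.0209 and ranged from 9.97 to 107 CPM, and Trpm4, a cation channel, had 0.0373 and ranged from 4.89 to 149 CPM. Tmem8a, a membrane protein, was higher, from 63.5 to 733 CPM, with a ratio of 0.208. Next came Cd3eap, a subunit of RNA polymerase I (0.106), Tbc1d10b, a Rab regulator (0.122), Rnf144b, a ubiquitin ligase (0.224), and Eef2k, the kinase of elongation factor 2 (0.271). Borcs7, of lysosome transport (0.321), Atp5sl (0.403) and Acot2, a mitochondrial thioesterase (0.413), closed the list of 10. Syt3 was also read in 65 of 66 SU cells, Trpm4 in 66 and Tmem8a in 66. In all, 677 tested genes varied less than 0.5 times as much as the line, and 213 of them were read in every VMP cell. The 532 tested genes of every cell had a median ratio of 0.856, and 120 of them (22.6%) were called, near the 24.7% of all genes.

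Among groups of genes, matrix genes had 9 of 24 tested called variable, against 31.3% of all named genes. These were Lum, Col3a1 (3.83), Loxl1, a lysyl oxidase (3.62), Dcn, Adamts5 and Adamts1, both proteases (2.82 and 2.28), Timp1, a protease inhibitor (2.33), Bgn, the proteoglycan biglycan (2.09), and Sparc (2.06). Timp1 and Adamts5 were under 2 without their highest cells. Of 13 transcription factors tested, 4 were called and stayed so without the highest cell: Meis1 (2.62), Ebf1 (2.43), Meis2 and Hoxd13 (2.01). Tbx5 and Isl1 were at 0.707 and 1.28. Secreted factors had 4 of 15 called (Fgf10, Jag1, Kitlg and Ptn) and Wnt pathway genes 2 of 7 (Sfrp2 and Sfrp4). BMP and TGF-beta genes had 3 of 10, none of them without the highest cell, and guidance and surface receptors had 5 of 12. No immediate early gene (0 of 4) and no imprinted gene (0 of 3) was called. Fos, an immediate early gene that dissociation can induce, reached 10 CPM in 48 of 49 VMP cells, with a median of 576 CPM and a ratio of 1.73.

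The variable genes were only weakly tied to each other. In a principal component analysis of log2(CPM + 1) over the 1299 called genes, the first component held 4.32% of the variance and the second 3.29%. The number of genes read in a cell had a squared correlation of 0.326 with component 1 over 49 cells, depth of 0.064, and the split by cell number of 0.171. Component 1 was above 0 in 16 of the 24 lower-numbered and 6 of the 25 higher-numbered cells. The named genes most tied to its positive side were Pdlim3, an actin-associated protein (Spearman's rho 0.56 over 49 cells), Anxa1 (0.51), Fhl1 (0.44) and the actin crosslinker Flna (0.44), and those on its negative side were Rgs5 (-0.56), Pdgfra (-0.49), Sfrp2 (-0.43) and Ptn (-0.42). Rgs5 and Alkbh5, an RNA demethylase (rho 0.48), were among the genes read unequally in the 2 sets of cells: Alkbh5 had a read in 23 of 24 lower-numbered and 13 of 25 higher-numbered cells. Component 2 had Casc4 (0.59), Meis1 (0.42) and Capn6 (0.40) on one side and Flna (-0.54), Fhl1 (-0.40) and Col3a1 (-0.38) on the other.

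Pairs of markers were likewise loosely related. Over 49 cells the 21 pairs of the 7 markers had Spearman's rho between -0.14 and 0.41, with a median of 0.20, and between -0.15 and 0.40 in cells thinned to 1 depth. The highest was Ptn with Igf2, and cell 37 held the highest value of both. The matrix pair Col1a1 and Col3a1 had rho 0.48. These values share depth and cell number and are given as descriptions. Over 5542 genes, chosen by their mean in VMP cells only, correlations were about as high between the tissues as among VMP cells. The median Pearson correlation was 0.336 for 1176 pairs of VMP cells, 0.332 for VMP with SU cells and 0.403 for pairs of SU cells. SU cells had more genes read, a median of 6183 against 5545, and the part of this in the correlations was not tested. The study's own principal component analysis separated VMP from SU cells, so these values do not show that the profiles were alike.

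Fewer VMP than SU cells held the genes of the G2 and M phases of the cell cycle that could be matched. Of 8 matched genes of the G2 and M phases, at least 2 reached 10 CPM in 6 of 49 VMP cells (12.2%, exact interval 4.63 to 24.8%) and in 45 of 66 SU cells (68.2%, 55.6 to 79.1%). At least 1 did so in 16 VMP and 58 SU cells. In cells thinned to 1 depth the counts were 7 and 50. Of the 6 VMP cells, 3 were lower-numbered and 3 higher-numbered. Cenpf, a kinetochore protein, reached 10 CPM in 6 VMP cells, up to 1497 CPM, against 42 SU cells. Kif23, a motor of cytokinesis, did so in 3 against 28. Cell 38 had the largest sum over the list, 3608 CPM, with Ptn at 47.1 CPM, the lowest of all VMP cells, and Fgf10 at 4.53 CPM. The S phase genes Rrm1 and Usp1, a deubiquitinase of DNA repair, reached 10 CPM in 12 and 24 VMP cells and in 38 and 36 SU cells, so that 29 of 49 VMP cells (59.2%) and 48 of 66 SU cells (72.7%) had at least 1 of them. Only 8 of 52 listed G2 and M genes and 2 of 42 S phase genes could be matched by name, and no cell was assigned a phase. Those matched were genes that the study listed as differing between the tissues, so their direction is not independent evidence. SU cells also had more genes of any kind at 10 CPM, a median of 3376 against 2828 in VMP cells.

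Against the SU cells, the VMP cells had lower levels of most matrix genes. Summed over cells and scaled by TMM, 23 of 32 matched matrix genes were at least 2-fold higher in SU and 1, the protease Adamts1, at least 2-fold higher in VMP. Their log2 ratios, VMP relative to SU, had a median of -1.53. Among all named genes compared, 37.5% were at least 2-fold higher in SU and 23.9% in VMP, with a median log2 ratio of -0.26, and among all 14463 genes 28.4% and 23%. Lum had the log2 ratio -2.86, and its VMP median of 31.4 CPM stood against 4262 CPM. The VMP and SU medians were 2884 and 9326 CPM for Col1a1 (log2 ratio -1.61) and 2582 and 9751 CPM for Col3a1 (-1.88). For Vcan, the large proteoglycan versican, they were 6.63 and 551 CPM, and for Ogn, osteoglycin, 2.47 and 491 CPM (-4.46). Eln, elastin, stood at 69.8 and 745 CPM (-3.22), with medians of 18.2 and 103 CPM in the lower-numbered and higher-numbered VMP cells. Dcn (-0.08) and Col12a1, a fibril-associated collagen (0.26), were past 2-fold in neither direction. The matrix count held in both sets of VMP cells by plain totals, with 23 of 32 higher in SU for the lower-numbered and 21 of 32 for the higher-numbered cells. The tissue and the capture cannot be told apart, since each tissue was 1 capture.

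**Figure D5:**
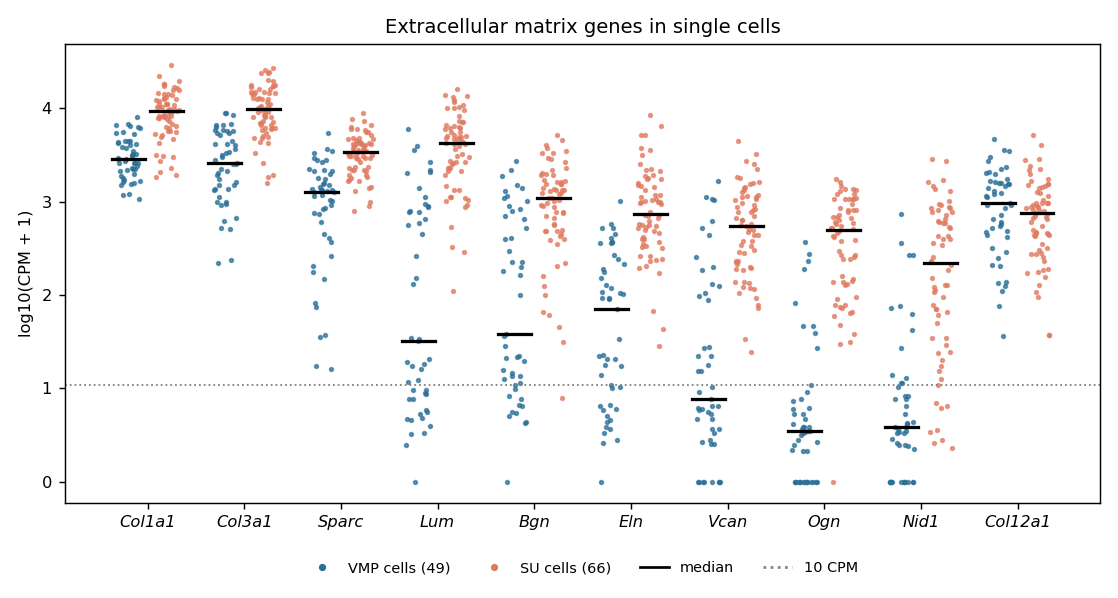
Each point is 1 cell, placed by its level of a matrix gene as log10(CPM + 1), for 49 VMP and 66 SU cells, with medians as bars and 10 CPM dotted. VMP medians lie lower for all genes shown but Col12a1, and for Lum, Bgn and Vcan they spread from near 0 to the range of SU cells.

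Of the study's 18 VMP genes, 16 were at least 2-fold higher in the summed VMP cells in both the lower-numbered and the higher-numbered set, a direction that follows from how they were chosen. Fgf10 had a log2 ratio of 4.37, Slc26a7 of 5.45, Rspo2 of 2.78, Ebf3 of 2.27, Meis2 of 2.10, Ptn of 1.92 and Igf2 of 1.495, and Dcn and Aspn were not past 2-fold. Against the 23.9% of all named genes higher in VMP and 37.5% higher in SU, several of the following shares are near the background. Transcription factors went both ways: 8 of 23 were at least 2-fold higher in VMP, among them Meis1 (2.49), Ebf1 (2.66) and Pitx1 (3.21), and 7 in SU, among them Hoxd13 (-1.05), Sox9 (-1.46) and Twist1 (-1.56). Pitx1 reached 10 CPM in only 8 VMP and 6 SU cells. Secreted factors divided likewise, with 9 of 25 higher in VMP, including Fgf7 (2.37), a relative of Fgf10, and 10 higher in SU, including Sema3c (-4.28), a guidance protein, and Jag1 (-2.39). Wnt pathway genes had 7 of 18 higher in VMP, including Sfrp1 (2.41) and Sfrp4 (4.97), and 5 higher in SU. For Sfrp4 the counts came from few cells. All 4 heat shock genes matched and 3 of 7 immediate early genes were at least 2-fold higher in SU.

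The summed VMP cells resembled the RNA-seq of dissociated VMP tissue more than that of SU, by a small margin. Log values were compared over genes at 1 CPM or more in the summed cells, in the other library or in both. Pearson's r was 0.790 with the VMP RNA-seq (16794 genes) and 0.756 with the SU RNA-seq (16312 genes). With Tag-seq, which counts a short tag per transcript in undissociated tissue, Pearson's r was 0.376 for VMP and 0.305 for SU. These correlations are across genes, which are not independent replicates.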

How the data were processed

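The deposited tables hold whole-number counts of reads per Ensembl gene (95 control rows, 92 of them ERCC, were set apart), which the authors made from reads trimmed with Trimmomatic 0.33 and aligned to Rnor_6.0 with TopHat. Amplification duplicates were removed with Picard 1.128. SAMtools and HTSeq also stand in the submitters' processing notes, and the study's methods name another counting function. The study's quality filter on depth, genes, mitochondrial and spike-in share kept as many VMP cells as the table holds but fewer SU cells, so the SU cells include some it removed. All deposited cells were used here. No molecular identifiers were used, so intervals cover counting error only. The strand of counting was not checked, so antisense and overlapping genes are uncertain.

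The markers, gene lists and named-gene rule were chosen with earlier results of these data known. Named were the study's VMP genes, the 15 named genes of highest variation, list members, and those most tied to components 1 and 2. The 10 named genes of lowest variation among those read in every VMP cell were added. Calls used a mean of at least 20 counts in at least 5 cells and a ratio of at least 2. Summed counts used TMM (edgeR 4.0.16), genes at 1 CPM or more and at least 2-fold. Percent intervals are Clopper-Pearson (95%), but the limits given for genes with no read are 3 divided by the number of cells. Alternatives used scran 1.30.0 and DESeq2 1.42.0 size factors. Scripts ran in Python 3.11.15 and R 4.3.3 and were tested on simulated data.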

Additional observations from a re-analysis of the deposited data

How the results depend on the processing

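The number of genes read in every VMP cell (620) followed the rule: 308 with at least 3 reads, 379 in cells thinned to the shallowest VMP cell, 305 thinned to the shallowest cell of the series, 1040 in at least 95% of cells and 191 at 10 CPM in every cell, the last chosen after seeing the data. The number of variable genes (1299) was 1982 under spike-in scaling, and 858 and 449 at minimum means of 50 and 100 counts. It was 2094, 538 and 237 at ratios of at least 1.5, 3 and 4. Without each gene's highest cell it was 585, with the minimum mean also taken without that cell. Of the 1299 genes, 555 kept a ratio of at least 2 without their highest cell. The number of variable genes was 128 on scran's log scale, and 5250 of 5250 against Poisson noise alone. It was 946 in the lower-numbered and 1104 in the higher-numbered cells, with 285 called in both sets. The share of VMP cells with all 7 markers (46.9%) was 93.9% at 1 read and 79.6% at 1 read after thinning. The first component held 4.32% of the variance and 7.43% under spike-in scaling, where the spike-in share explained 0.738 of it. Without a minimum level, 6299 genes were higher in SU cells, against 4112. Leaving out cells 6, 13 and 77, chosen after seeing the data, gave 1291 variable genes and 4224 genes higher in SU, and took Jag1 to a ratio of 1.66. Among the study's VMP genes, the matrix genes and the general fibroblast genes, no log2 ratio past 2-fold changed sign under the scalings run. By TMM the median of all genes was at -0.03, and at 0.07 by totals or in thinned cells. No paired analysis was possible because the results come from no test and the cell numbers shared by the tissues mark captured cells. Depth limits any statement below about 10 CPM.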
